A study of Drosophila melanogaster with 6 samples.

Results

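The genes examined here build and run the mitochondrion's traffic. They comprise the machinery that imports proteins made in the cytosol, the carriers and channels that pass metabolites across the outer and inner membranes, and a small set of genes for fusion, fission, ion balance and quality control. They were chosen by name. Of 37 gene names, 31 were listed among the 11621 genes of the count table, namely 13 import genes, 12 carriers and 6 genes of dynamics, ion balance and quality control. The other 6 names (Tom34, Tim17b, Tim17b2, Tim23, MPCP and DPCoAC) matched no listed symbol, and 3 genes that the table lists under an older or other symbol (Tim23, Mpcp2 and DPCoAC) are described separately and were left out of all counts of the 31.

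RNA was sequenced from the cuticles of Drosophila melanogaster larvae, that is, epidermis and skeletal muscle of the body wall, in 3 samples from tumour-bearing larvae and 3 from control larvae. The tumour-bearing larvae were sampled at 10 days after egg laying. Their first chromosome carried y, w and ey-flp, a recombinase source active in the eye disc, the second carried act5C>y+>GFP and UAS-RasV12, and the third carried FRT82B with tub-gal80 opposite FRT82B with scrib1, so that tumour clones arise in the eye discs rather than in the body wall that was sequenced. The controls were w1118 larvae of 7 days that carried none of these transgenes and no scrib1 allele. Age, genetic background and sequencing lane changed together with the tumour and cannot be told apart from it. The paper also names RasV12, scrib1 larvae among those reared with a temperature shift, unlike most crosses. Whether this held for the sequenced larvae is not stated. Nothing in the sample descriptions states that the 3 samples of a group came from separate cultures, so the p-values speak only for the scatter among the 6 samples, and this scatter may be technical.

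Most mitochondrial proteins are encoded in the nucleus and enter through the TOM complex of the outer membrane, of which Tom40 is the pore and Tom20 a receptor. The small Tim proteins escort hydrophobic precursors across the intermembrane space, the TIM23 complex carries others through the inner membrane, and Hsp60 folds them in the matrix. Metabolites cross the outer membrane through porin and the inner membrane through a family of carriers, of which the ADP/ATP carrier exports the ATP that contracting muscle consumes. Mitochondria fuse through the mitofusin Marf, divide through Drp1, and are marked for removal by Pink1 and Parkin when damaged.

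The libraries held 62617114 to 84149121 counts each. The 20 most abundant genes took 6.66 to 7.55% of the counts in tumour-bearing libraries and 25.0 to 33.1% in control libraries, so that the choice of library scaling matters. Values below are counts scaled by the trimmed mean of M-values (TMM), called normalised counts. Scaling by total counts instead raised the median log2 fold change of all tested genes to 0.94, against 0.01 with TMM, and changes are therefore given relative to the bulk of genes. As a check of the labels, w had 18779, 12505 and 11102 normalised counts in tumour-bearing samples and 3.08, 0 and 0 in controls, whose w1118 allele disrupts this gene, and y had 2140.0, 1979 and 2309 against 6.15, 0 and 6.47. The tumour-bearing genotype is itself labelled y, w and holds a y+ cassette, and the labels name no source of the w reads. Of the genes altered in the tumour clones, scrib (log2 fold change 0.63, adjusted p = 0.0540) and Ras85D (0.11, adjusted p = 0.490) did not pass in edgeR, though scrib did in DESeq2 (0.0257). Markers of the dissected tissue moved as well. The 17 body wall muscle markers took 2.77 to 3.70% of the counts in tumour-bearing libraries and 4.39 to 12.4% in control libraries, 11 of them fell and none rose, and Mhc was not analysed here. The 11 epidermal and cuticle markers took 0.166 to 0.257% against 10.7 to 15.7%, with 10 lower. Of 10 haemocyte markers 7 rose and 1 fell (0.206 to 0.539% of counts against 0.0510 to 0.102%). Of 8 fat body markers 1 rose, 1 fell and 6 did not pass. Their summed share was 0.0830 to 0.190% against 0.0114 to 0.0289% and was highest in tumour-bearing replicate 1. Of 8 nervous system markers 3 rose and none fell, and of 5 tested midgut markers 1 rose and none fell. Of 6 tested eye-antennal disc markers 1 rose and 1 fell, and of 6 tested male germline markers 2 rose and 1 fell. In whole tissue, fewer cells of a type and less RNA per cell cannot be told apart, and the part of tissue composition in the results below was not tested beyond the values given beside them. Control replicate 3 stood apart from the other controls, with muscle markers at a median of 1.52 log2 units below them.

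Across the set there was no common direction. The main outer-membrane channel, the ADP/ATP carriers and the carnitine carrier fell in cachectic cuticles, whereas the outer-membrane import pore, the matrix chaperonin, the mitofusin and the iron carrier rose. Of the 31 genes 28 had enough counts for the test, and 12 of the 28 (42.9%) passed at an adjusted p below 0.05 in edgeR's quasi-likelihood test with Benjamini-Hochberg adjustment, 6 higher (Tom40, Hsp60, Tpc2, mfrn, Bmcp and Marf) and 6 lower (Tom7, sesB, porin, Ant2, colt and scu). Over all 10074 tested genes 46.8% passed, 23.8% higher and 23% lower, so the share among these genes was close to that of the whole table. The median of their log2 fold changes was −0.07, against 0.01 for all genes. The 3 tumour-bearing samples lay wholly above the 3 controls for 8 of the 28 genes and wholly below for another 8, where the shares over all genes were 31.9% and 29.7% (61.6% in either direction). With total counts the split was 20 higher and 2 lower, against 61.4% and 6.9% of all genes, with a median of 0.86. The count of lower genes was 8 without control replicate 3 and 3 without tumour-bearing replicate 2.

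**Figure D1:**
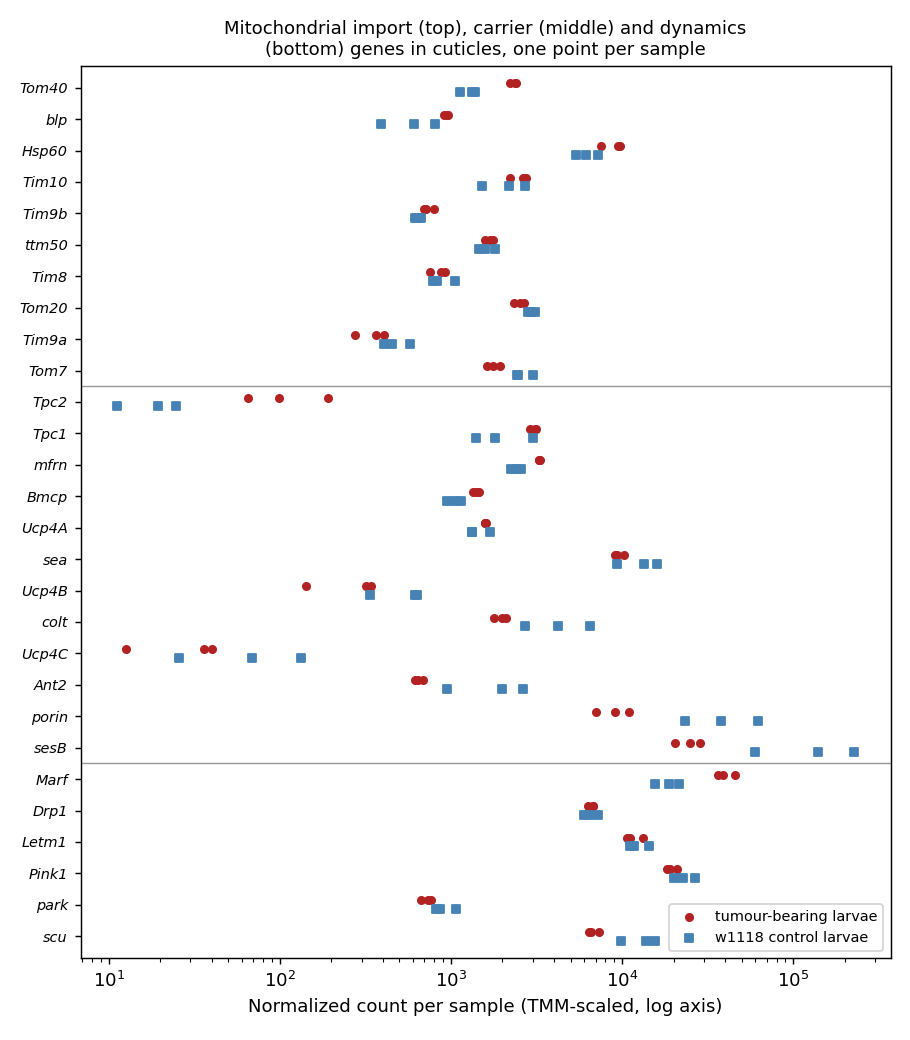
Normalised count of each of the 28 tested genes in each sample, on a log axis, with tumour-bearing larvae as circles above control larvae as squares for every gene, and horizontal lines between the import, carrier and dynamics genes. The largest gaps between the groups are those of sesB and porin among the carriers, whose control samples spread over a wide range, and Tpc2, whose counts are low.

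Of the 10 import genes that were tested, Tom40 and Hsp60 rose, Tom7 fell and 7 did not pass, with a median log2 fold change of 0.12. With 30.0% called, against 46.8% of all genes, the direction was mixed under TMM. Total counts called 9 higher and none lower, against 61.4% and 6.9% of all genes.

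Tom40 (FBgn0016041, X:7736893-7739978 in BDGP6) encodes the channel through which nearly all imported precursors pass. It had 2402, 2217 and 2384 normalised counts in tumour-bearing replicates 1, 2 and 3, against 1375, 1335 and 1124 in control replicates 1, 2 and 3. The groups did not overlap, and the samples within each group lay close together. Tom40 was 1.83-fold higher in tumour-bearing cuticles (log2 fold change 0.87 ± 0.11 SE, adjusted p = 0.00233, edgeR), and the call held under all 14 alternative settings. Its partners in the same complex gave other values. Tom20, the receptor that first binds presequences, had 2524, 2351 and 2660 normalised counts in tumour-bearing samples against 2822, 3106 and 2947 in controls. Each tumour-bearing value was below each control value, but the difference did not pass (log2 fold change −0.24 ± 0.09, adjusted p = 0.0854, edgeR), and with total counts it passed as higher (0.70). Tom7, a small subunit that regulates assembly of the complex, fell to 1934, 1627 and 1755 normalised counts in tumour-bearing samples, against 2477, 3015 and 2422 in controls. That is a log2 fold change of −0.57 ± 0.13 (adjusted p = 0.0139, edgeR), without overlap between the groups. The call was lost without tumour-bearing replicate 2 (adjusted p = 0.0592, edgeR), and with total counts the sign turned (0.37). Within a library, free of any scaling, Tom40 counts were 95.2, 94.3 and 89.6% of Tom20 counts in tumour-bearing samples and 48.7, 43.0 and 38.1% in controls. This ratio was chosen after the data had been seen and is given with no test.

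Hsp60 (FBgn0015245, X:11108482-11112308) encodes the chaperonin that folds newly imported proteins in the matrix. Its normalised counts were 9785, 7584 and 9468 in tumour-bearing samples and 6129, 7206 and 5418 in controls. The lowest tumour-bearing sample, replicate 2, was only slightly above the highest control, replicate 2. The log2 fold change was 0.52 ± 0.16 (adjusted p = 0.0412, edgeR). Leaving out tumour-bearing replicate 1 or 3 or control replicate 1 or 3 ended the call, with adjusted p values in edgeR of 0.125, 0.115, 0.123 and 0.0820.

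The small Tim proteins, which shield membrane proteins on the way to the inner membrane, showed no change that passed in edgeR with TMM. Tim8 (log2 fold change −0.06 ± 0.15), Tim9a (−0.45 ± 0.22), Tim9b (0.20 ± 0.11) and Tim10 (0.24 ± 0.22) had adjusted p values of 0.772, 0.132, 0.167 and 0.394 in edgeR. Tim9a had 408, 276 and 367 normalised counts in tumour-bearing samples against 406, 574 and 455 in controls, which overlap. Tim9b had 796, 710 and 698 against 667, 615 and 634, without overlap. The reads of some cannot be assigned. All of the exon sequence of Tim9b lies within exons of Pstk (listed as CG12788), and both had the same counts in every library. Tim10 shares 90.7% of its exon length with CG42497. Tim9b counts were 1.95, 2.57 and 1.90 times Tim9a counts in tumour-bearing libraries and 1.64, 1.07 and 1.39 times in controls, with no overlap and an exact two-sided permutation p of 0.1, which is the smallest that 3 against 3 samples allow (0.16 adjusted over the 8 gene pairs compared).

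Components of the inner-membrane translocase were likewise without a change that passed in edgeR with TMM. The homologue of Tim50, ttm50, had 1757, 1586 and 1684 normalised counts in tumour-bearing samples and 1590, 1821 and 1455 in controls, which overlap (log2 fold change 0.05 ± 0.11). It passed as higher with total counts (0.996, adjusted p = 0.000714, edgeR). For blp, the homologue of the motor component Pam16, tumour-bearing samples had 906, 946 and 960.0 normalised counts and controls 610.4, 801 and 392. The groups did not overlap, but the controls scattered widely and the test was not passed (0.64 ± 0.26, adjusted p = 0.0863, edgeR). It passed without control replicate 2 (0.0304) and with total counts (1.62, adjusted p = 0.000575). The Tim17 copies Tim17b1 and Tim17a1 and the small Tim13 had almost no reads. Tim13 had 2, 1 and 0 raw counts in tumour-bearing libraries and 4, 2 and 0 in controls, Tim17b1 had 4, 8 and 13 against 4, 6 and 5, and Tim17a1 had 4, 8 and 7 against 12, 0 and 0. No fold change is given for these 3 genes.

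The carriers and porin held the largest decreases of the set. Of 12 tested, 4 fell (sesB, porin, Ant2 and colt) and 3 rose (Tpc2, mfrn and Bmcp). The median over the 12 was −0.71 on the log2 scale, and 58.3% were called, against 46.8% of all genes. Scaled by total counts, 2 were lower and 6 were higher, against 6.9% and 61.4% of all genes. The 4 decreases were reduced to 2 by leaving out control replicate 1 or any tumour-bearing replicate.

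sesB (stress-sensitive B, FBgn0003360, X:10780893-10786958) encodes the main ADP/ATP carrier, which exchanges ATP made in the matrix for cytosolic ADP. By mean reads per exon length it ranked first of the set in both groups, although Marf was above it in tumour-bearing replicate 2. It had 24803, 20519.5 and 28549 normalised counts in tumour-bearing samples, against 140040.0, 226071 and 60216 in controls. All tumour-bearing samples were far below all controls, and the controls differed widely among themselves, with control replicate 3 the lowest and control replicate 2 the highest. The log2 fold change was −2.53 ± 0.50, a 5.77-fold decrease (adjusted p = 0.00951, edgeR), and the call held under all 14 alternatives, including total counts (−1.51).

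porin (FBgn0004363, 2L:10847227-10850848) encodes the voltage-dependent anion channel of the outer membrane, through which ATP, ADP and other small solutes pass. Its normalised counts were 9088, 7077 and 10963 in tumour-bearing samples and 38142, 62024 and 23302 in controls. The order of the 3 controls was the same as for sesB, and the groups did not overlap. The decrease was 4.55-fold (log2 fold change −2.19 ± 0.40, adjusted p = 0.00735, edgeR) and held under all 14 alternatives (−1.18 with total counts).

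Ant2 (X:10778954-10786907) encodes another ADP/ATP carrier. Its span on the X chromosome takes in most of that of sesB, in the same direction, and both genes share 102 exon bases. Reads from these bases may be mixed with those of the far more abundant sesB, and their part in the Ant2 values was not tested. Ant2 had 643, 618 and 686 normalised counts in tumour-bearing samples against 1987, 2645 and 949 in controls. The groups were again separate, with control replicate 3 nearest the tumour-bearing samples. This was a log2 fold change of −1.52 ± 0.36 (adjusted p = 0.0182, edgeR), but leaving out tumour-bearing replicates 1, 2 or 3 or control replicate 1 ended the call (0.0613, 0.0693, 0.0548 and 0.0595), as did total counts (−0.52, adjusted p = 0.135). Within each library, Ant2 counts were 2.59, 3.01 and 2.40% of those of sesB in tumour-bearing samples and 1.42, 1.17 and 1.58% in controls. The log2 difference was 0.95, without overlap (exact two-sided permutation p = 0.1, adjusted 0.16).

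colt (congested-like trachea, FBgn0019830, 2L:2768590-2770069) encodes the carnitine/acylcarnitine carrier that brings fatty acyl groups into the matrix for oxidation. It had 2110.4, 1786 and 1995 normalised counts in tumour-bearing samples against 4227, 6456 and 2694 in controls. The same order of controls was seen, and the groups did not overlap. Its log2 fold change was −1.18 ± 0.32 (adjusted p = 0.0256, edgeR). The call ended without tumour-bearing replicate 1, 2 or 3 or control replicate 1 (0.0684, 0.0915, 0.0738 and 0.0665), and with total counts the value was −0.19.

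**Figure D2:**
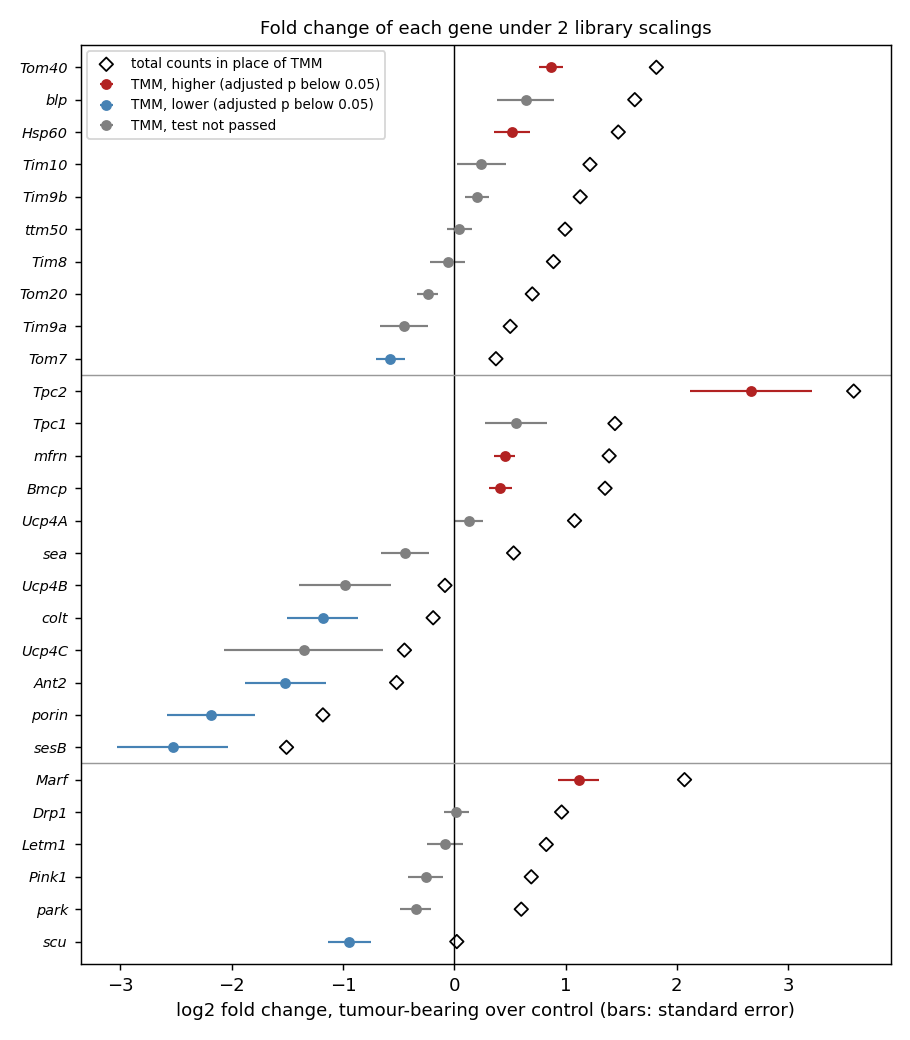
Log2 fold change of each tested gene, tumour-bearing over control, with its standard error from the TMM-scaled fit (filled circles, coloured by call), and the same value with total counts in place of TMM (open diamonds). All diamonds lie to the right of their circles; sesB and porin stay well below 0 under both scalings and Tom40 and Marf stay above 0.

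Body wall muscle is rich in mitochondria, and the same genes were therefore set against body wall muscle markers in the same library, an alternative added after the data had been seen. Per 1000 counts of muscle markers, sesB had 16.4, 9.65 and 14.6 counts in tumour-bearing samples and 14.8, 15.1 and 15.1 in controls. porin had 5.99, 3.33 and 5.60 against 4.03, 4.14 and 5.84. For both genes the groups overlapped, with log2 differences of −0.18 and 0.06, so the decreases of sesB and porin were of the size of the decrease in the muscle markers. On the same scale Ant2 had 0.424, 0.291 and 0.351 counts against 0.210, 0.177 and 0.238, and colt had 1.39, 0.840 and 1.02 against 0.447, 0.431 and 0.675. These groups did not overlap, and in each the tumour-bearing samples were the higher (log2 differences of 0.76 and 1.06). Tom40 had 1.58, 1.04 and 1.22 counts in tumour-bearing samples and 0.145, 0.0892 and 0.282 in controls, an 8.19-fold difference. Drp1, with a log2 fold change of 0.02 with TMM, was also 4.55-fold higher on this scale. Tom7 and scu, which fell with TMM, were 3.01-fold and 2.37-fold higher. Muscle markers are themselves a changed quantity, and these values are ratios rather than amounts.

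**Figure D3:**
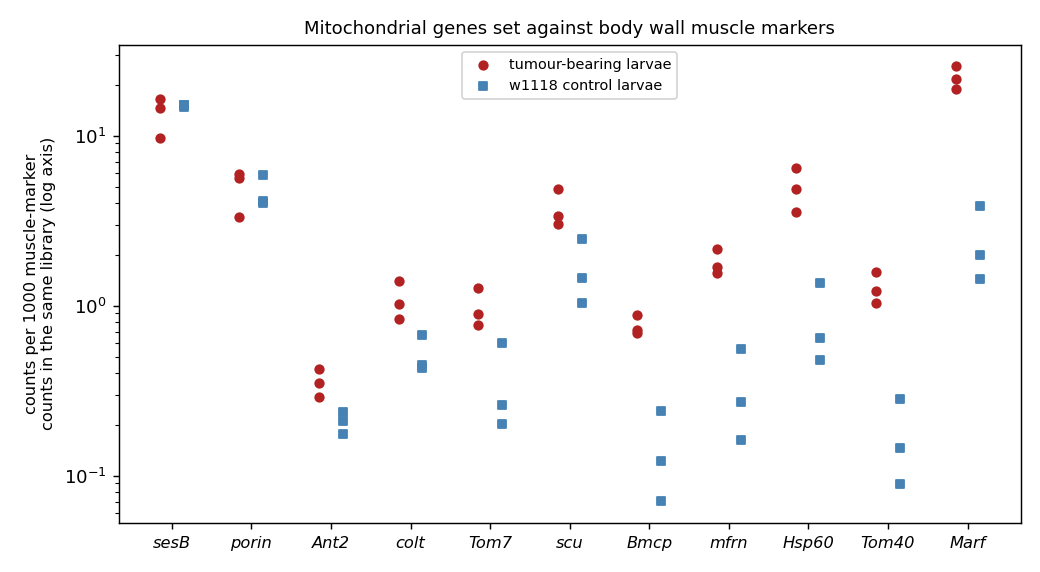
Counts of the 11 called genes other than Tpc2 per 1000 body wall muscle marker counts in the same library, on a log axis, with tumour-bearing samples as circles to the left of control samples as squares. The groups overlap for sesB and porin, while the tumour-bearing samples lie above the controls for the other 9 genes.

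The same genes were also set against the nuclear respiratory genes of the same library, again as an alternative added after the data had been seen. Per 1000 counts of nuclear genes for the respiratory complexes and ATP synthase, sesB had 104.8, 89.6 and 103.0 counts in tumour-bearing samples and 156.9, 157.5 and 137.0 in controls, and porin had 38.4, 30.9 and 39.6 against 42.7, 43.2 and 53.0. Both were lower in every tumour-bearing sample, by 0.60 and 0.35 on the log2 scale. Ant2, at 2.72, 2.70 and 2.48 against 2.23, 1.84 and 2.16, and colt, at 8.92, 7.80 and 7.20 against 4.74, 4.50 and 6.13, were instead higher in every tumour-bearing sample.

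The 3 carriers that rose were of other kinds. mfrn (mitoferrin, FBgn0039561, 3R:27942796-27948021), which carries iron into the matrix, had 3289, 3305 and 3289 normalised counts in tumour-bearing samples and 2566, 2422 and 2232 in controls. The tumour-bearing samples were almost equal and all above the controls. The increase was 0.45 ± 0.09 on the log2 scale (adjusted p = 0.0102, edgeR), and the call held under all 14 alternatives. Bmcp, a relative of the uncoupling proteins, had 1345, 1468 and 1399 normalised counts in tumour-bearing samples and 1146, 1059 and 953 in controls, without overlap. Its log2 fold change of 0.42 ± 0.11 (adjusted p = 0.0213, edgeR) did not pass without tumour-bearing replicate 1, 2 or 3 or control replicate 2 (0.0502, 0.0819, 0.0637 and 0.0535). A transposable element covers 8.79% of the exon length of Bmcp, and its part in the Bmcp reads was not tested.

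Tpc2 (FBgn0035078, 2R:24897902-24900734) is a relative of the thiamine pyrophosphate carrier Tpc1 and had by far the lowest counts of the genes that passed. It had 64.8, 99.2 and 190.0 normalised counts in tumour-bearing samples against 24.6, 11.2 and 19.4 in controls. The groups did not overlap, and tumour-bearing replicate 3 was well above the other two. The log2 fold change was 2.67 ± 0.55 (adjusted p = 0.0103, edgeR), and it passed in each of the 13 alternatives that could test it. The filter of at least 10 counts in every sample left Tpc2 out. Its raw counts were 92, 108 and 245 in tumour-bearing libraries but 16, 7 and 18 in controls, so the size of its fold change rests on few control counts. However, 40.7% of the exon length of Tpc2 lies opposite exons of CG9083, and the library kit does not keep strand. CG9083 itself had 40, 41 and 113 raw counts in tumour-bearing libraries against 1, 2 and 8 in controls, so reads of the pair cannot be told apart. Tpc1 had 2902, 3161 and 3099 normalised counts in tumour-bearing samples and 1404, 1821 and 3002 in controls. Control replicate 3 fell among the tumour-bearing values, and the difference did not pass (log2 fold change 0.56 ± 0.28, adjusted p = 0.149, edgeR). It passed without that library (0.00334) and with total counts (1.44, adjusted p = 0.0129). The count of Tpc2 was 2.23, 3.14 and 6.13% of that of Tpc1 in tumour-bearing libraries and 1.75, 0.616 and 0.647% in controls (log2 difference 1.93, exact two-sided permutation p = 0.1, adjusted 0.16).

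Uncoupling proteins, which let protons leak back across the inner membrane, gave no change that passed in edgeR with TMM. Ucp4A had 1575, 1612 and 1582 normalised counts in tumour-bearing samples and 1324, 1691 and 1333 in controls, which overlap (log2 fold change 0.13 ± 0.12), and passed as higher with total counts (1.08). Ucp4B had 142, 319.7 and 341 against 632, 338 and 616, and Ucp4C had 12.7, 35.8 and 40.3 against 132, 25.6 and 69.0, with log2 fold changes of −0.98 ± 0.41 and −1.35 ± 0.72 (adjusted p = 0.0969 and 0.165, edgeR). In both genes control replicate 2 fell among the tumour-bearing values. Ucp4B passed as lower with DESeq2 (−0.997, adjusted p = 0.0472). It lies wholly opposite an antisense RNA, with which its reads may be mixed. Set against Bmcp in the same library, Ucp4B stood at 10.6, 21.8 and 24.4% in tumour-bearing samples and 55.2, 31.9 and 64.7% in controls, without overlap (log2 difference −1.45, exact two-sided permutation p = 0.1, adjusted 0.16). The ratios of Ucp4A and Ucp4C to Bmcp overlapped (log2 differences −0.28 and −1.64, both exact two-sided permutation p = 0.2, adjusted 0.229).

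The citrate carrier sea (scheggia), which supplies cytosolic acetyl groups for lipid synthesis, had 9319, 9063 and 10273 normalised counts in tumour-bearing samples and 13391, 16117 and 9337 in controls. Control replicate 3 lay within the tumour-bearing range, and the test was not passed (log2 fold change −0.44 ± 0.21, adjusted p = 0.138, edgeR). It passed as lower without control replicate 3 (0.0120), whereas with total counts the sign turned and it passed as higher (0.53, adjusted p = 0.0259). Its exons overlap those of fabp over 85.2% of their length, so the value belongs to both genes.

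Among the 6 tested genes of dynamics, ion balance and quality control, Marf rose and scu fell, and 4 did not pass. Their median log2 fold change was −0.17, and 33.3% were called, against 46.8% of all genes. With total counts 5 were higher and none lower, against 61.4% and 6.9% of all genes. The median was then 0.76, against 0.94 for all genes.

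Marf (FBgn0029870, X:6365949-6370924) encodes the mitofusin that tethers and fuses outer membranes, and is also a substrate of Parkin. It had 38790.1, 45971 and 36609 normalised counts in tumour-bearing samples against 18836, 21597 and 15485 in controls. Every tumour-bearing sample was well above every control. Marf was 2.17-fold higher (log2 fold change 1.12 ± 0.18, adjusted p = 0.00510, edgeR), and the call held under all 14 alternatives. A non-coding RNA lies opposite 9.59% of the exon length of Marf, and its part in the Marf reads was not tested. Drp1, the dynamin that constricts and divides mitochondria, had 6339.7, 6729 and 6751 normalised counts in tumour-bearing samples and 6370.3, 7219 and 5965 in controls. The groups overlapped throughout (log2 fold change 0.02 ± 0.11, adjusted p = 0.896, edgeR). With total counts Drp1 passed as higher (0.96, adjusted p = 0.000901, edgeR). Within each library Marf had 6.12, 6.83 and 5.42 counts for each Drp1 count in tumour-bearing samples and 2.96, 2.99 and 2.60 in controls. The log2 difference of this ratio was 1.10, a 2.15-fold difference that does not depend on library scaling, with no overlap (exact two-sided permutation p = 0.1, adjusted 0.16).

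**Figure D4:**
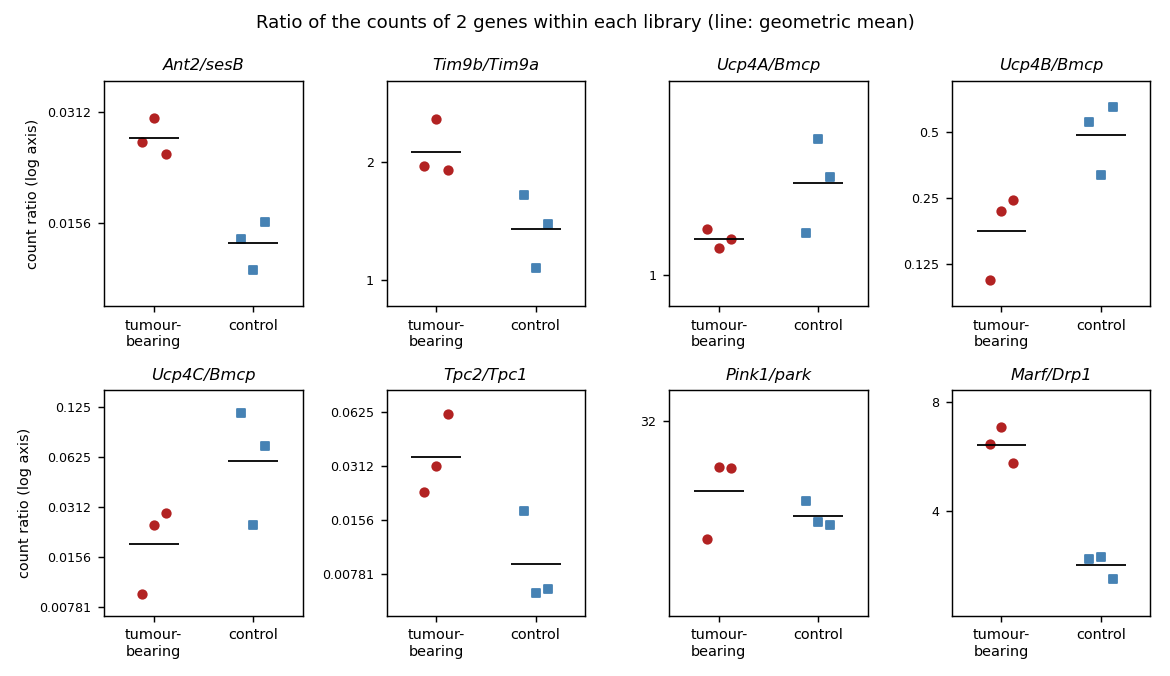
Ratio of the counts of 2 genes within each library for the 8 pairs compared, on log axes, with tumour-bearing samples (circles) left of controls (squares) and the geometric mean as a line. The Marf/Drp1 and Ant2/sesB ratios are higher in all tumour-bearing samples, while Pink1/park overlaps.

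Pink1, the kinase that accumulates on damaged mitochondria, and park, the Parkin ubiquitin ligase it activates, did not change in a way that passed in edgeR with TMM. Pink1 had 18208, 21005 and 18989 normalised counts in tumour-bearing samples and 22694, 26771 and 20112 in controls, and the groups overlapped (log2 fold change −0.26 ± 0.16, adjusted p = 0.218, edgeR). With total counts the sign turned and Pink1 passed as higher (0.69, adjusted p = 0.00387, edgeR). park had 764, 737 and 668 against 867, 1077 and 815, without overlap (−0.35 ± 0.14, adjusted p = 0.0873, edgeR), and passed only without control replicate 3 (0.0370) or with total counts, where the sign turned (0.60). An antisense RNA covers 63.8% of the exon length of park. The ratio of both genes overlapped between the groups, with 23.8, 28.5 and 28.4 Pink1 counts per park count in tumour-bearing libraries and 26.2, 24.9 and 24.7 in controls (log2 difference 0.09, exact two-sided permutation p = 0.4, adjusted 0.4). Letm1, an inner-membrane protein of ion exchange, overlapped as well, with 11125, 13337 and 10722 normalised counts in tumour-bearing samples and 11142, 11693 and 14445 in controls (log2 fold change −0.08 ± 0.16). It too turned sign and passed as higher with total counts (0.83, adjusted p = 0.0162, edgeR).

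scu (scully, FBgn0021765, X:18091259-18092853) encodes a matrix hydroxyacyl-CoA dehydrogenase of fatty acid and branched-chain amino acid oxidation, so that its role is metabolic rather than one of dynamics. It had 7348, 6445 and 6581 normalised counts in tumour-bearing samples against 13729, 15493 and 9889.5 in controls. The groups did not overlap, and control replicate 3 was again the lowest control. The log2 fold change was −0.94 ± 0.19 (adjusted p = 0.00987, edgeR), and the call was lost only with total counts (0.02).

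The order of abundance within the set shifted accordingly. In TPM, a read share corrected for exon length, sesB had the highest group mean of the 28 tested genes in both groups, at 369 to 536 TPM in tumour-bearing samples and 497 to 1229.9 TPM in controls. Marf had rank 2 in tumour-bearing samples (381 to 459 TPM), where its range overlapped that of sesB, and rank 6 in controls (65.2 to 70.9 TPM), far below. porin had rank 9 in tumour-bearing samples (89.3 to 144 TPM) and rank 2 in controls (135 to 237 TPM), although there its range overlapped that of scu at rank 3 (144 to 155 TPM). Hsp60 had rank 6 in tumour-bearing samples and rank 12 in controls. Levels in TPM depend on what the rest of each library holds and are read here only as an order within a group.

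Of the 3 genes listed under other symbols, the phosphate carrier Mpcp2 (listed as Mpcp), which supplies phosphate for ATP synthesis, had 18932, 18921 and 20950 normalised counts in tumour-bearing samples against 36158, 48175 and 25100 in controls. The groups did not overlap, and the log2 fold change was −0.90 ± 0.25 (adjusted p = 0.0298, edgeR). Leaving out tumour-bearing replicate 1, 2 or 3 or control replicate 1 or 2 ended the call (0.0926, 0.0999, 0.0740, 0.0834 and 0.0541), as did upper-quartile factors (0.0504), and with total counts the value was 0.08. The dephospho-CoA carrier DPCoAC (listed as att-ORFA) had 3711, 4339 and 3739 against 2457, 2818 and 2976, also without overlap (0.51 ± 0.12, adjusted p = 0.0164, edgeR). It shares 58.6% of its exon length with att-ORFB, and its call ended without tumour-bearing replicate 2 (0.0605) or control replicate 1 (0.0512). Tim23 (listed as CG40042), the channel of the inner-membrane translocase, had 3811, 3408 and 3603 against 4624, 4389 and 4053 and did not pass (−0.27 ± 0.10, adjusted p = 0.0686, edgeR). It passed as lower with DESeq2 (0.0345) and without control replicate 3 (0.0385), and turned to 0.67 with total counts.

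Other genes of the same pathways also moved in both directions with TMM. Of 19 other import genes tested 4 rose and 3 fell (36.8%, against 46.8% of all genes), with a median log2 fold change of 0.23. With total counts 14 were higher and none lower, against 61.4% and 6.9% of all genes. CG8728 then passed as higher (0.41), CG8004 turned sign (0.32) and CG40127 no longer passed (−0.43). The increases were the Tim44 homologue CG11779, part of the import motor (1.29 ± 0.19), the receptor Tom70 (0.96 ± 0.11), the matrix chaperone Trap1 (0.64 ± 0.10) and CG31229 (0.48 ± 0.12). Tom70 had 1378, 1142 and 1245 normalised counts in tumour-bearing samples and 618, 657 and 663 in controls, and CG11779 had 2444, 2293 and 2198 against 1070.2, 1084 and 692. Both were separate between the groups (adjusted p = 0.00168 and 0.00376, edgeR). The decreases were CG8728 (−0.55 ± 0.15), CG8004 (−0.63 ± 0.14) and CG40127 (−1.36 ± 0.12), and the last of these is annotated as RNASEK, which is not an import gene and entered the list in error. The lower count was 6 without control replicate 3 and 1 without tumour-bearing replicate 2 or 3.

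Of 26 other genes of inner-membrane transport 6 fell and 5 rose (42.3%, against 46.8% of all genes), with a median of −0.15. With total counts 12 were higher and 2, GC1 and CG5254, lower, against 61.4% and 6.9% of all genes. The calls of aralar1, CG5646, Sfxn2 and MCU were then lost (adjusted p = 0.0737, 0.0677, 0.127 and 0.365, edgeR). GC1, a glutamate carrier, fell by 2.72 ± 0.27 on the log2 scale, to 773, 755 and 834 normalised counts in tumour-bearing samples against 5657, 6634 and 3325 in controls (adjusted p = 0.00126, edgeR). CG5254 fell by 2.04 ± 0.32, and aralar1, the aspartate/glutamate carrier of the malate shuttle, fell by 2.0 ± 0.52. CG5646, Sfxn2 and the mitochondrial calcium uniporter MCU were also lower (−1.82, −1.25 and −1.23). The increases were CG9396 (1.63, at 27.6 to 59.7 normalised counts against 9.71 to 20), CG1628 (1.48), CG8026 (1.31), Shawn (0.91) and Tyler (0.89). The lower count was 11 without control replicate 3 and 3 without tumour-bearing replicate 2, and the higher count was 3 without tumour-bearing replicate 1 or 3.

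Of 24 other genes of dynamics, cristae and quality control 7 fell and 3 rose (41.7%, against 46.8% of all genes), with a median of −0.14. With total counts 18 were higher and none lower, against 61.4% and 6.9% of all genes. Of the genes named below as lower, Fis1 (0.55), clu (0.47) and rho-7 (0.60) then passed as higher. Tango11 (0.31) and Afg3l2 (0.21) turned sign without passing, and QIL1 and Chchd3 no longer passed. Both QIL1 (−1.37 ± 0.34) and Chchd3 (−1.10 ± 0.36), subunits of the MICOS complex that shapes the cristae, were lower, as were the protease subunit Afg3l2 (−0.74 ± 0.13), Tango11, the homologue of the Drp1 receptor Mff (−0.61 ± 0.11), clu (−0.46), Fis1 (−0.38) and rho-7 (−0.34). The increases were Miro, which links mitochondria to motors (0.58 ± 0.15), the matrix protease Lon (0.54 ± 0.14) and ref(2)P, the p62 homologue (0.50 ± 0.14). No gene of this list passed as higher without tumour-bearing replicate 1 or control replicate 1, 1 passed without tumour-bearing replicate 2 or 3, and the count of lower genes was 3 without any tumour-bearing replicate and 4 without control replicate 1.

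**Figure D5:**
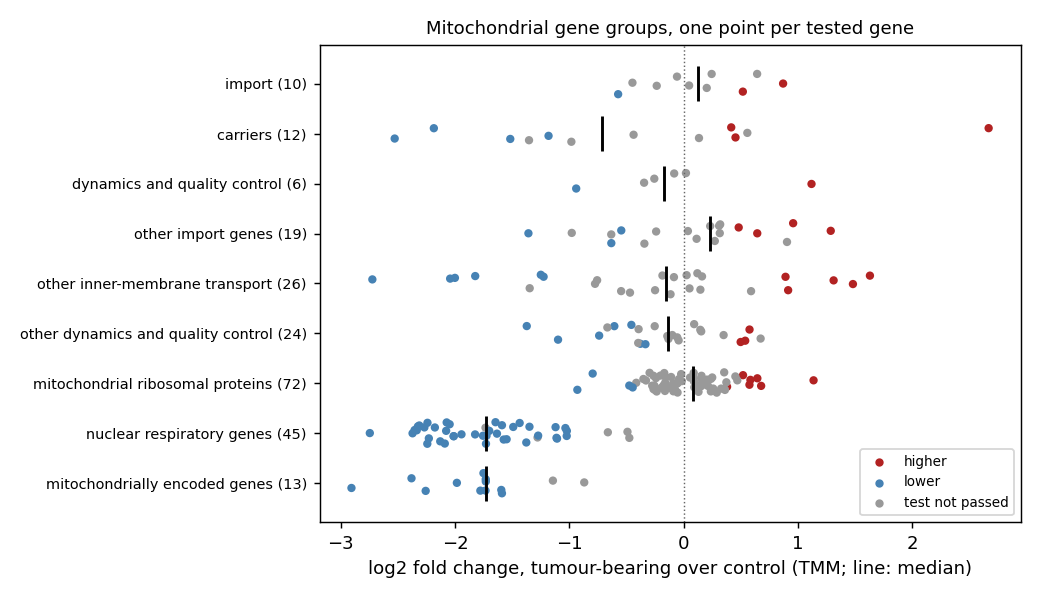
Log2 fold change, tumour-bearing over control, of every tested gene in 9 mitochondrial groups, with the median as a line and the number of genes in parentheses. The import, carrier and dynamics groups and the mitochondrial ribosomal proteins spread around 0, whereas the nuclear and the mitochondrially encoded respiratory genes lie almost wholly below 0.

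Respiratory and mitochondrial translation genes frame these values. Of 45 nuclear genes for the respiratory complexes and ATP synthase 40 fell and none rose, with a median log2 fold change of −1.73. With total counts 18 were lower and the median was −0.71. Of 13 mitochondrially encoded genes 11 fell, with a median that was also −1.73 (10 lower and a median of −0.76 with total counts). Of 72 mitochondrial ribosomal proteins 7 rose and 4 fell, with a median of 0.09, whereas with total counts 69 were higher and none lower, with a median of 1.04. With TMM the shares called were 88.9, 84.6 and 15.3% of these 3 groups, against 46.8% of all genes. With total counts 61.4% of all genes were higher and 6.9% lower, with a median of 0.94. No test was made of how the import, carrier and dynamics genes differ from these groups.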

How the data were processed

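RNA-seq counts were available for 6 cuticle samples, grouped by the genotype in the sample labels. The authors deposited 1 table of raw read counts per gene. Per the labels' processing notes, TopHat, Bowtie, HTSeq and DESeq2 were used with build BDGP6. Their versions and settings are not given in the sources used here. The deposited table also holds a signal column for each sample, in which the counts of that sample are all scaled by the same factor, and the authors' fold changes and p-values, none of which were used. The labels and the methods differ on the cuticle number per sample and the RNA kit.

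From the counts, edgeR 4.0.16 in R 4.3.3 (filterByExpr, TMM, robust quasi-likelihood test, Benjamini-Hochberg over 10074 genes, threshold 0.05) was fitted on all 6 samples and tested on simulated data. In the simulated data it called 25 of 98 genes changed 2-fold, 83 of 95 changed 4-fold and 8 of 9956 unchanged genes. Normalised counts are counts scaled by the TMM library sizes. TPM used exon lengths from Ensembl BDGP6 annotation, which also gave coordinates, overlaps and current names. Ratios within a library used a pseudocount of 0.5 and an exact permutation test over samples. The named-gene rule gave per-sample values for members that passed or belong to a compared pair. Every other member is named with its values. Of each list of other genes, the rule named up to 3 that passed in each direction, and the remaining ones were added after their values were seen. Members and lists were chosen with earlier results of these data known. Promoter motifs were not examined. Counting error is small for genes with many reads at this depth, from 62617114 to 84149121 counts per sample. It is larger for genes with few reads, such as Tpc2, Ucp4C, Tim13, Tim17b1 and Tim17a1.

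Alternatives were RLE and upper-quartile factors, total counts, DESeq2 1.42.0, no filter, at least 10 counts in every sample, leaving out the 20 most abundant genes, a replicate block, and leaving out each sample.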

Additional observations from a re-analysis of the deposited data

How the results depend on the processing

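Of the 12 calls, those of sesB, porin, Marf, Tom40 and mfrn held under all 14 alternatives and that of Tpc2 under the 13 that tested it. RLE factors, no filter and leaving out the 20 most abundant genes kept all 12. Total counts moved most values upward: 6189 higher and 695 lower over all genes, 20 and 2 among the members (median 0.86), 9 and 0 for import, 6 and 2 for carriers, 5 and 0 for dynamics, and 14 and 0, 12 and 2, and 18 and 0 for the other import, transport and dynamics genes. With total counts the sign turned for Letm1 (0.83), Tim8 (0.89), Tom20 (0.70), Pink1 (0.69), Tim23 (0.67), park (0.60), sea (0.53), Tim9a (0.50), Tom7 (0.37), Mpcp2 (0.083) and scu (0.0235). Near 0, Drp1 turned to −0.0004 with RLE factors, and Letm1 and Tim8 to 0.0352 and 0.0616 with upper-quartile factors, which also called 7 other import genes higher and 4 other dynamics genes lower. DESeq2 called 5 other import genes lower. A replicate block called 8 members, ending the calls of Hsp60, Bmcp, colt, Tom7 and, under its other symbol, Mpcp2 (adjusted p = 0.108, 0.0658, 0.0611, 0.0512 and 0.0770, edgeR), with import at 1 higher and 0 lower and other dynamics at 4 lower. Same-numbered samples did not all deviate together (correlations −0.05, 0.07 and 0.11), and not every sample correlated best with its own number, so the numbers were not taken to pair the samples. The cause of these shifts was not tested.

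Leaving out each sample in turn gave 1380 to 2548 lower genes over all genes and 3 to 8 among the members, 1 to 3 higher and 0 to 1 lower for import, 2 to 5 lower for carriers and 1 to 2 lower for dynamics. The other import genes had 1 to 6 lower, the other transport genes 3 to 5 higher and 3 to 11 lower, and the other dynamics genes 0 to 4 higher and 3 to 9 lower. Log2 fold changes then ranged from −0.0581 to 0.0901 for Drp1, −0.184 to 0.0195 for Letm1, −0.145 to 0.0743 for Tim8 and −0.043 to 0.129 for ttm50. With 3 samples a group, a call missed here does not show that a gene was unchanged.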
